A study of Brassica napus with 6 samples.

Results

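The 2 FAD2 oleate desaturase homeologs of oilseed rape (Brassica napus) described here are BnaA05g26900D and BnaC05g40970D. The former is on chromosome A05 of the A subgenome and the latter on chromosome C05 of the C subgenome. They were chosen by ID as the A05 and C05 copies of FAD2, and they are 2 of 72611 genes in the deposited count table. Any other FAD2 copies were not examined, so sums and shares below cover these 2 genes only. The files do not pair IDs with names, so the identity of the copies was taken as given and could not be checked against sequence. RNA was sequenced from seed harvested at 30, 40 and 50 days after flowering. The plants were either controls or had been kept under drought since flowering began. Each of the 6 combinations of treatment and day had 1 library. All plants grew under a rain shelter, the labels speak of several lines, and none says which line a library came from, so line and treatment cannot be told apart.

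FAD2 is the desaturase of the endoplasmic reticulum that puts a further double bond into oleate while it is bound to phosphatidylcholine, which gives linoleate. Linoleate is in turn the substrate of FAD3, which makes linolenate. In oilseed rape, loss of FAD2 function is the basis of high-oleic seed oil. Brassica napus arose from a cross of Brassica rapa, the source of the A subgenome, and Brassica oleracea, the source of the C subgenome, and a pair of matching genes from the 2 subgenomes is called homeologs.

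Both copies were among the most abundant transcripts of the seed. Their mean levels over the 6 libraries were 506 and 529 CPM for the A05 and C05 copy, where CPM is reads per 1000000 of a library size corrected by TMM, the trimmed mean of M values. Of the 46483 genes tested, 99.8% had a lower mean level than either copy. By level per length (CPM per kilobase), the A05 copy ranked between 113 and 255 in the 6 libraries and the C05 copy between 98 and 542, among 56614 to 62269 genes with a read. The lowest rank of each copy was in the drought library of day 50. The libraries held 10314859 to 16177156 counted reads, and the copies together took 0.0587% to 0.130% of them.

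On the TMM scale, the A05 copy was higher at each later day in control seeds, whereas the C05 copy was highest at day 40. The A05 copy had 4749, 8011 and 8510 reads in the control libraries of days 30, 40 and 50, which were 305, 541 and 655 CPM. The C05 copy had 6554, 9985 and 7396 reads, or 421, 675 and 569 CPM. Both copies stood higher at day 40 than at day 30 in control, with ratios of 1.77 (95% counting interval 1.71 to 1.84) for the A05 copy and 1.60 (1.55 to 1.65) for the C05 copy. Between days 40 and 50 they parted, the A05 copy standing 1.21-fold higher at day 50 (1.17 to 1.25) and the C05 copy 1.19-fold lower (1.15 to 1.22). The sum of the copies was 1216 CPM at day 40 and 1224 CPM at day 50, a ratio of 1.01 (0.985 to 1.03). These intervals, here and below, cover counting error only and leave out differences between plants. With libraries scaled by their totals alone, the A05 copy was level over this step, at a ratio of 0.989, and the C05 copy stood at 0.690.

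In drought seeds both copies were highest at day 40 and lower again at day 50. Under drought the A05 copy had 7719, 5896 and 5354 reads at days 30, 40 and 50, which were 366, 750 and 419 CPM. The C05 copy had 9155, 6296 and 3473 reads, or 434, 801 and 272 CPM. From day 30 to day 40 the ratio was 2.05 (1.98 to 2.12) for the A05 copy and 1.85 (1.79 to 1.91) for the C05 copy. With library totals alone these ratios were 1.20 and 1.08, and those of control over the same step 1.48 and 1.34. From day 40 to day 50 the A05 copy was 1.79-fold lower (1.73 to 1.86) and the C05 copy 2.95-fold lower (2.83 to 3.07). The drought library of day 50 thus held the lowest C05 level of the 6 libraries, below that of day 30 in either treatment. For the A05 copy the lowest TMM level was that of control seeds at day 30, while with library totals it was that of drought seeds at day 50 (356 CPM against 389 in control at day 30).

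**Figure D1:**
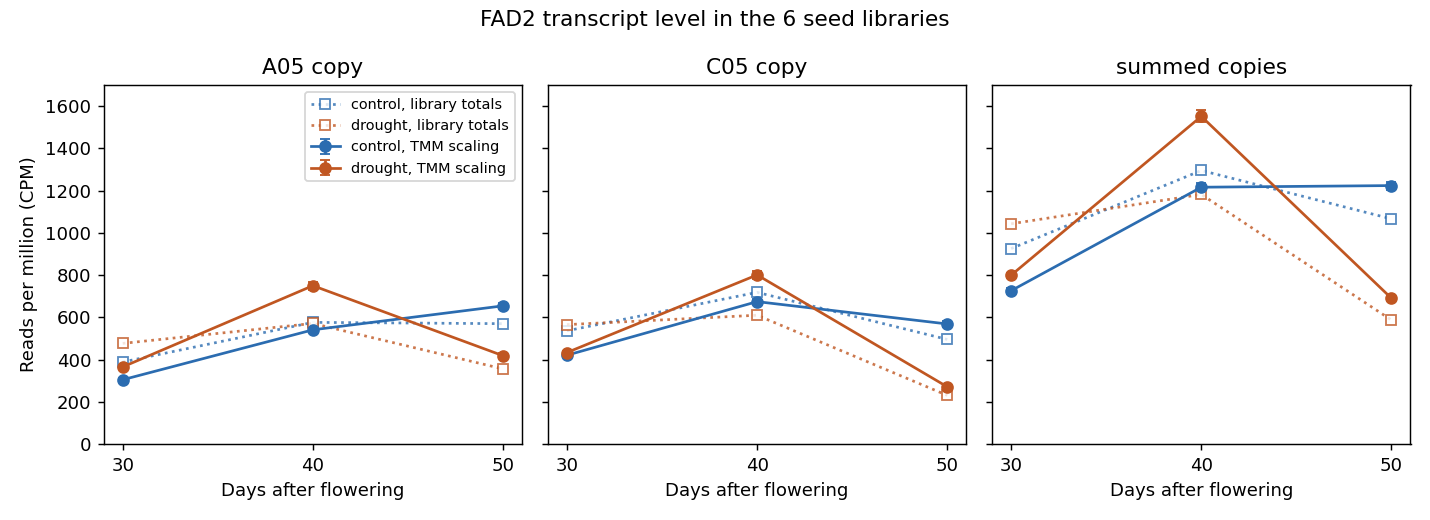
Level of the A05 copy, the C05 copy and their sum in CPM (vertical axis) against days after flowering, in control (blue) and drought (orange) seeds. Filled circles use TMM scaling with 95% counting intervals and open squares use library totals, with 1 library per point. On the TMM scale the sum in drought stands above control at days 30 and 40 and below it at day 50, at 690 against 1224 CPM.

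The copies differed in the order of their levels over the libraries. From low to high on the TMM scale, the A05 copy ran from control day 30 (305 CPM) over drought day 30 (366), drought day 50 (419), control day 40 (541) and control day 50 (655) to drought day 40 (750). The C05 copy ran from drought day 50 (272 CPM) over control day 30 (421), drought day 30 (434), control day 50 (569) and control day 40 (675) to drought day 40 (801). With library totals both copies were highest in control at day 40, the A05 copy at 577 CPM against 572 in drought and the C05 copy at 719 against 610. For the C05 copy the libraries of day 30 did not differ beyond counting error, with a drought to control ratio of 1.03 (0.998 to 1.06). Since no treatment was repeated on a day, the spread between plants is unknown, so no other neighbours in these orders can be called different. In RNA from bulk seed, fewer cells that make the transcript and less of it per cell cannot be told apart.

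The authors' deposited FPKM (fragments scaled by length and by a library factor that is not stated) gave the same course as the TMM scale. Their ratios between libraries were not those of the count totals, and the reason was not tested. At day 40 the drought to control ratio of the A05 copy was 1.21 by FPKM and 0.991 with library totals. At days 30, 40 and 50 the A05 copy had FPKM of 318, 596 and 712 in control, against 399, 721 and 454 under drought. The C05 copy had FPKM of 385, 636 and 532 in control, against 407, 695 and 257 under drought. In both treatments the C05 copy was highest at day 40 on this scale as well, and the A05 copy was highest at day 50 in control and at day 40 in drought.

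Whether drought changed FAD2 expression was asked at each day. At day 30 the A05 copy stood 1.20-fold higher in drought than in control (1.16 to 1.24) and the C05 copy, as given above, was level. At day 40 the A05 copy was 1.39-fold higher in drought (1.34 to 1.43) and the C05 copy 1.19-fold higher (1.15 to 1.23). At day 50 both were lower in drought, the A05 copy 1.56-fold (1.51 to 1.62) and the C05 copy 2.09-fold (2.01 to 2.18). The sum of the copies was 1.10-fold higher at day 30, 1.28-fold higher at day 40 and 1.77-fold lower at day 50.

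Set against all genes that averaged 5 CPM or more in the libraries of a day, these ratios lay between the 5th and the 95th percentile. The A05 copy lay outside the 25th to 75th percentile on each day, and the C05 copy did so at day 50 only. The log2 ratio of drought to control at day 30 was 0.26 for the A05 copy, above that of 83.1% of 26716 genes, and 0.04 for the C05 copy, above 57.1%. At day 40 it was 0.47 and 0.25, above 78.4% and 65.5% of 26525 genes. At day 50 it was -0.64 and -1.07, above 17.2% and 8.49% of 26594 genes. Among the 1194 genes of at least 100 CPM on that day the shares were 17.9% and 9.46%. A difference of at least 2-fold was found for 0 of 2 copies at days 30 and 40, where 1.76% and 10.1% of genes were that far apart. At day 50 it was found for 1 of 2 copies, the C05 copy, where 19.6% of genes were at least 2-fold apart and 9.55% at least 2-fold lower in drought.

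The direction at day 40 depended on how the libraries were scaled, while that at day 50 did not. With library totals alone, the log2 ratio of day 40 was -0.013 for the A05 copy and -0.24 for the C05 copy, but the median gene then stood at -0.46. Relative to the median gene, a value that library scaling cannot change, the copies stood at 0.45 and 0.23 at day 40 and at -0.70 and -1.13 at day 50. The 100 genes of highest mean level took 39.4% of the drought library of day 40 and 22.6% of its control, and their part in the result was not tested. With totals taken without these genes, a setting chosen after the data had been seen, the day 40 values were 0.34 and 0.12 and the day 50 values -0.81 and -1.23. The authors' FPKM gave 0.27 and 0.13 at day 40 and -0.65 and -1.05 at day 50.

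**Figure D2:**
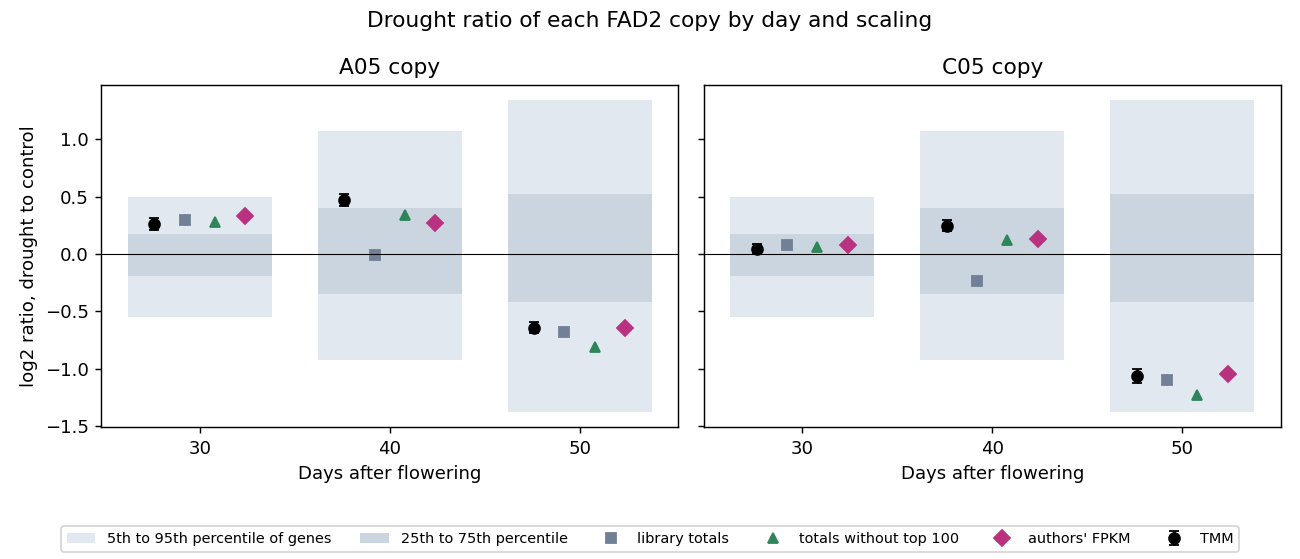
Log2 ratio of drought to control (vertical axis) for the A05 and C05 copy at each day after flowering under 4 scalings, with 95% counting intervals on the TMM values. Grey boxes give the 5th to 95th and the 25th to 75th percentile of all genes averaging 5 CPM or more on that day under TMM. At day 40 the library total values lie at -0.013 and -0.24 and the others above 0, and at day 50 every value lies below 0.

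Over the 3 days together, no drought change was called for either copy. In edgeR's quasi-likelihood test with terms for day and treatment on all 6 libraries, the log2 fold change of drought was 0.03 (SE 0.43, adjusted p = 0.991) for the A05 copy and -0.25 (SE 0.45, adjusted p = 0.915) for the C05 copy. In that test 0.00215% of genes were called, so the members' count of 0 of 2 says little. The error of this test comes from how far the drought ratio varied from day to day. The spread of each gene is drawn toward that seen over all genes tested. Without either library of day 50, the change of the C05 copy was 0.15 instead of -0.25. That of the A05 copy was -0.19 without either library of day 40 and -0.10 without either of day 30.

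The changes with seed age, tested in the same way over both treatments, were not called either. The model averages the treatments and takes their disagreement as error. For the A05 copy the log2 ratio of day 50 to day 40 was 0.27 in control and -0.84 in drought. Both copies stood higher at day 40 than at day 30 in each treatment, so the lack of a call does not show a level course. From day 30 to day 40 the log2 fold change was 0.94 for the A05 copy (SE 0.52, edgeR adjusted p = 0.369) and 0.80 for the C05 copy (SE 0.54, edgeR adjusted p = 0.479), while 6.43% of genes were called. From day 40 to day 50 it was -0.26 for the A05 copy (SE 0.52, edgeR adjusted p = 0.843) and -0.87 for the C05 copy (SE 0.55, edgeR adjusted p = 0.448), with 1.44% of genes called. From day 30 to day 50 it was 0.68 (SE 0.52, edgeR adjusted p = 0.407) and -0.07 (SE 0.54, edgeR adjusted p = 0.944), with 20.3% of genes called. With library totals the changes from day 30 were smaller for the A05 copy, at 0.40 to day 40 and 0.08 to day 50, and those of the C05 copy were 0.25 and -0.68. Single libraries set the direction of the small changes. From day 30 to day 50 the C05 value was 0.12 without the drought library of day 30 and 0.51 without that of day 50, and from day 40 to day 50 the A05 value was 0.06 without the drought library of day 40 and 0.23 without that of day 50. In each of these tests and the drought test, 0 of 2 copies had an unadjusted p under 0.05 in edgeR, where 20% of all genes did from day 30 to day 40, 17.7% from day 40 to day 50, 33.4% from day 30 to day 50 and 7.18% for drought. DESeq2 and limma voom called 0 of 2 copies in each test as well, and at an unadjusted p under 0.05 each had 1 of 2 from day 30 to day 40 (16.8% and 20.8% of all genes) and DESeq2 had 1 of 2 from day 40 to day 50 (14.7% of all genes). With the copies added into 1 row, a fit chosen after the data had been seen, the sum was at 0.86 from day 30 to day 40 (edgeR adjusted p = 0.501) and at -0.11 for drought (edgeR adjusted p = 0.969).

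The balance between the copies moved toward the A05 copy with seed age in both treatments. The A05 copy held 42.0% of the reads of the 2 copies in control seeds at day 30 (95% exact binomial interval 41.1 to 42.9), 44.5% at day 40 (43.8 to 45.2) and 53.5% at day 50 (52.7 to 54.3). In drought seeds it held 45.7% (45.0 to 46.5), 48.4% (47.5 to 49.3) and 60.7% (59.6 to 61.7). Within each treatment the intervals of the 3 days do not overlap. The intervals treat reads as independent and leave out differences between plants, so the days are set apart from counting error only. How often other homeolog pairs show such a separation at this depth was not examined. The shares need no scaling between libraries, since both copies come from the same library.

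On each day the A05 share was higher in drought than in control. The gap was 3.73 percentage points at day 30, 3.84 at day 40 and 7.15 at day 50, and the intervals of the 2 treatments did not overlap on any day. These intervals, too, cover counting error only, so they do not set the treatments apart from differences between plants. How often other homeolog pairs separate between 2 such libraries was not examined. Expressed as the ratio of A05 to C05 reads, drought stood 1.16-fold, 1.17-fold and 1.34-fold above control. Over the 3 days the mean log2 difference was 0.29 ± 0.12 (SD, n = 3 days), higher in drought on 3 of 3 days. The exact paired permutation test gave a two-sided p of 0.25, which is the smallest that 3 pairs allow. The FPKM gave gaps of 4.28, 2.53 and 6.65 points.

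The A subgenome as a whole was set beside this. Among reads of all genes with an A or C name, the A part over days 30, 40 and 50 amounted to 49.6%, 50.8% and 52.1% of control reads and to 49.2%, 52.4% and 50.3% of drought reads. The drought minus control gap of that share was -0.484, 1.63 and -1.77 points, so it had the sign of the FAD2 gap at day 40 and the opposite sign at days 30 and 50. The subgenome share is a share of reads, so the most abundant genes weigh most in it. It does not give the balance of a typical homeolog pair. The difference between the FAD2 share and the subgenome share was not tested.

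Per length, the copies changed places between days 40 and 50 in control seeds. The deposited gene lengths were 1531 bases for the A05 copy and 1773 for the C05 copy. Per base, the A05 share over days 30, 40 and 50 was 45.6%, 48.2% and 57.1% in control, against 49.4%, 52.0% and 64.1% under drought. In control the C05 copy was thus the higher per base at days 30 and 40, by 1.19-fold and 1.08-fold, and the A05 copy at day 50, by 1.33-fold. In drought the copies were near level per base at day 30, and the A05 copy was 1.08-fold higher at day 40 and 1.79-fold higher at day 50. Over the 6 libraries the log2 ratio of A05 to C05 per base averaged 0.16 ± 0.40 (SD, n = 6), above 0 in 3 of 6, with a two-sided p of 0.406 in the exact paired permutation test. The libraries differ in day and treatment and are not replicates of a group, and the smallest p this test allows is 0.0313. Reads that match both copies can be split or moved between them by the counting, and how such reads were handled is not given in the sources used here.

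**Figure D3:**
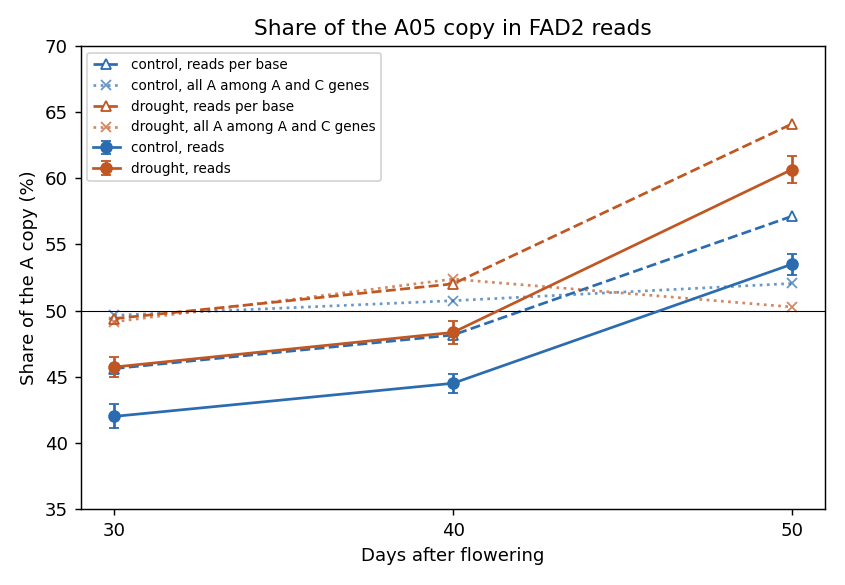
Share of the A05 copy in the reads of both FAD2 copies (vertical axis, percent, shown from 35 to 70) against days after flowering in control (blue) and drought (orange). Circles are shares of reads with 95% exact binomial intervals, triangles are shares per base, and crosses are the share of all A genes among A and C genes. The read share of the A05 copy ends at 53.5% in control and 60.7% in drought at day 50.

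The 2 copies shared part of their course across libraries. The Pearson correlation of their log2 CPM over the 6 libraries was 0.72 and the Spearman correlation 0.77, given as a description of libraries that share their scaling. Without the 2 libraries farthest from the median A05 level the Pearson correlation was 0.64. Of 9792 other genes averaging 20 CPM or more, 1368 correlated more closely with the A05 copy than its homeolog did, and 993 more closely with the C05 copy.

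The genes most like each copy were found by the same correlation. Their shared course follows from that choice and is no separate result. For the A05 copy these were BnaA03g36670D (Pearson correlation 0.995 over 6 libraries) and BnaA04g12720D (0.994). BnaA03g36670D stood over days 30, 40 and 50 at 13.8, 25.1 and 32.0 CPM in control, against 16.4, 40.2 and 18.1 CPM under drought. BnaA04g12720D had the wider range, from 7.07 CPM in control at day 30 to 41.7 CPM in drought at day 40. For the C05 copy the closest were BnaC05g36570D (0.994), on the same chromosome, and BnaA03g01600D (0.993). BnaC05g36570D was itself abundant, with 306, 477 and 422 CPM in control and 323, 547 and 183 CPM in drought. BnaA03g01600D ran only from 15.4 CPM in drought at day 50 to 25.3 CPM in drought at day 40. Of the 9792 genes, 65 exceeded a correlation of 0.95 for the A05 copy and 79 for the C05 copy.

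**Figure D4:**
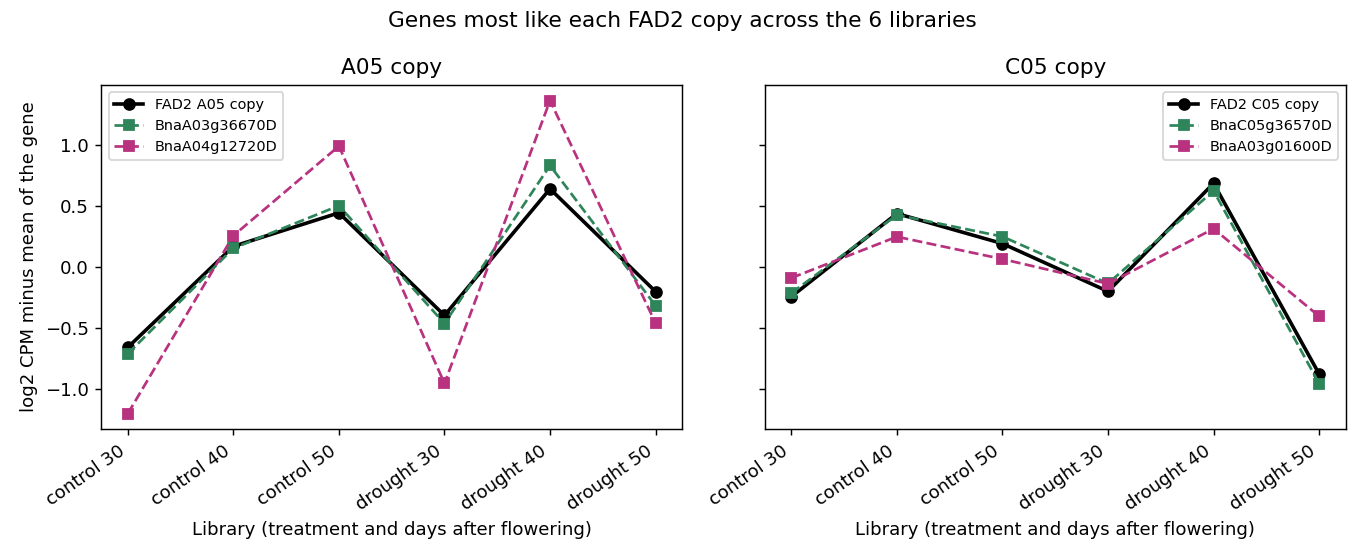
Log2 CPM minus the mean of each gene (vertical axis) in the 6 libraries, named by treatment and day after flowering, for each FAD2 copy (black) and the 2 genes of highest Pearson correlation with it. With TMM scaling the A05 panel is lowest in control at day 30 and the C05 panel in drought at day 50, and both are highest in drought at day 40.

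The genes with neighbouring ID numbers, which in this naming scheme follow the chromosome, were far less abundant than FAD2. Since 99.8% of the genes tested had a lower mean level than either copy, that says little about the neighbourhood. Of the 20 IDs nearest in number to the A05 copy, 10 on either side, 16 were tested, and the highest mean level among the 20 was 37.3 CPM. Of the 20 nearest to the C05 copy 14 were tested, with a highest mean of 39.9 CPM. From day 30 to day 50, edgeR called 1 higher and 1 lower beside the A05 copy and 0 higher and 2 lower beside the C05 copy, where 20.3% of all genes were called. At day 50, 9 and 5 of these genes reached a mean of 5 CPM, and their median log2 ratio of drought to control was -0.32 and -0.47, against 0.06 over all 26594 genes. Of them, 3 and 1 were at least 2-fold lower in drought and 0 were at least 2-fold higher. Over all 26594 genes, 9.55% were at least 2-fold lower. The neighbours are few, and a difference from the other genes was not tested.

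Other genes of the pathway (among them FAD3, FAE1 and the regulators of seed oil) could not be described beside FAD2, since 0 of the deposited IDs were found in the RefSeq table used here. For the same reason markers of the seed coat, embryo and endosperm could not be checked against the labelled tissue.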

How the data were processed

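The authors deposited raw counts per gene for 6 libraries with gene lengths, and 1 file per library of values read here as FPKM. Per the labels' protocols, RNA was extracted with Trizol and sequenced as paired reads of 100 bases. Cufflinks is named in the submitters' processing notes. The sources used here do not name an aligner, a counting tool, a genome build or the use of strand.

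Counts were fitted with edgeR 4.0.16 (R 4.3.3) on the whole table, using filterByExpr (46483 genes kept), TMM scaling, day and treatment terms, 2 residual degrees of freedom, two-sided quasi-likelihood tests and a Benjamini-Hochberg threshold of 0.05. Per-day ratios used a prior of 0.5 reads and have no test. Copies were compared by exact sign-flip permutation. Alternatives used DESeq2 1.42.0, limma 3.58.1 and FPKM as log2(FPKM + 1). Scripts were tested on simulated data. Named genes were both copies and the 2 genes most correlated with each among genes of at least 20 CPM. The labels name no separate plants, so p-values measure only the spread between these libraries. Members, lists and tests were chosen with earlier results of these data known.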

Additional observations from a re-analysis of the deposited data

Results flagged for a closer look

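On the TMM scale the drought ratio of each copy changed sign between days, which marked these results for a closer look. With 1 library per treatment and day, none of these differences was tested. The log2 ratio of drought to control of the A05 copy was lower at day 50 than at day 30, with a difference of -0.91, and lower than at day 40, with a difference of -1.12. For the C05 copy the difference between day 50 and day 40 was -1.31. Its log2 ratio at day 40 was 0.25 with TMM but -0.24 with library totals, and at day 30 it was level within counting error. The change of sign of the C05 copy thus depended on the scaling. Seen along time, the A05 copy went up in control and down in drought from day 40 to day 50, and these steps differ by the same -1.12, since they are built from the same 4 libraries. The C05 copy stood higher at day 50 than at day 30 in control and lower in drought, with log2 ratios of 0.43 and -0.68, a difference of -1.11. With library totals alone the control ratio of that pair was -0.11, so there the opposite direction is lost. With library totals alone the A05 step from day 40 to day 50 was -0.02 in control and -0.68 in drought.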

How the results depend on the processing

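Of 112 alternative fits of the 4 tests for each copy, 99 kept the direction and the side of the threshold, 13 changed direction and 0 called a copy, with adjusted p from 0.153 to 1. These fits reuse the same 6 libraries and are not separate checks. For drought, leaving out either library of a day gave nearly the same value. The drought change of the A05 copy was -0.13 with library totals, -0.016 with the authors' FPKM and -0.061 with totals without the 100 most abundant genes. With each library left out in turn, the drought change ran from -0.19 to 0.37 for the A05 copy and from -0.51 to 0.15 for the C05 copy. Day 50 against day 30 ran from 0.16 to 1.18 and from -0.71 to 0.51, day 40 against day 30 from 0.60 to 1.22 and from 0.40 to 1.11, and day 50 against day 40 from -0.79 to 0.23 and from -1.51 to -0.29. With library totals, day 50 against day 30 was 0.08 and -0.68 instead of 0.68 and -0.07, and day 40 against day 30 was 0.40 and 0.25 instead of 0.94 and 0.80. The cause of these changes was not tested.

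The log2 ratio of drought to control at day 40 was -0.013 (A05) and -0.24 (C05) with library totals, 0.27 and 0.13 with FPKM, and 0.34 and 0.12 with totals without the 100 most abundant genes. With the length trend removed the C05 value was 0.32. At day 30 the FPKM gave 0.33 for the A05 copy. At day 50 totals without the 100 most abundant genes gave -0.81 and -1.23. The A05 share per base was 45.6%, 48.2% and 57.1% in control and 49.4%, 52.0% and 64.1% in drought. By FPKM it was 45.3%, 48.4% and 57.2% in control and 49.5%, 50.9% and 63.9% in drought. The mean log2 ratio of A05 to C05 was -0.049 without scaling by length and ran from 0.03 to 0.25 with each library left out.

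The counts of all genes behind the shares of called genes moved more. For drought edgeR called 1 gene, against 63 with library totals, 467 without a filter, 242 with DESeq2, 134 with limma voom, 0 with FPKM and 0 with the length trend removed. Day 40 against day 30 went from 2988 to 4845 with library totals and 5987 without a filter. Day 50 against day 40 went from 670 to 1742 with library totals, 3498 without a filter, 2187 with DESeq2 and 39 with FPKM. With each library left out, the counts ran from 0 to 251 for drought, 3913 to 10898 for day 50 against day 30 (9450 with all), 924 to 6087 for day 40 against day 30, and 10 to 3575 for day 50 against day 40.

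No replicate block was fitted, since the labels carry no replicate numbers. Drought and control were paired by day, through the day term of the model and in the test of the copy ratio over 3 days. Depth did not limit the values of the copies, which had at least 3473 reads in each library, whereas the lack of replicates did.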
